A study of Homo sapiens with 4 samples.

Results

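Histone lysine demethylases, methyltransferases, acetyltransferases and deacetylases were examined in SCC-15, a human cell line that the labels call oral squamous cell carcinoma, with REEP6 overexpression and in its negative control. The 64 genes, out of 51103 in the count tables, were taken by a rule on their symbols (KDM, KMT, SETD, EZH, KAT, HDAC and SIRT with a number). They comprised 20 demethylases, 19 methyltransferases, 7 acetyltransferases, 11 zinc-dependent deacetylases and 7 sirtuins. Polyadenylated RNA came from 2 samples labelled REEP6-overexpression, a line made with lentivirus, and from 2 labelled NC, all of the same line grown in serum and harvested after 48 h. The sources used here do not state the vector of the control, the promoter behind REEP6, or whether each line is a clone or a pool. REEP6 is a membrane protein of the endoplasmic reticulum, and the comparison asks which transcripts differ when it is overexpressed.

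Methyl groups on histone lysines are written by methyltransferases, which take them from S-adenosylmethionine, and are removed by demethylases of either the flavin-dependent KDM1 type or the JmjC type, which needs iron and 2-oxoglutarate. Acetyl groups are written by acetyltransferases from acetyl-CoA and removed by zinc-dependent deacetylases or by sirtuins, which consume NAD. Methylation of lysine residues in the H3 tail can mark active promoters, enhancers or repressed genes, depending on the residue, while acetylation is mostly found at active genes. Genes of these enzymes are frequently mutated in squamous carcinomas of the head and neck.

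The libraries held 13236417 and 13302967 counts with REEP6 and 12856256 and 15208629 counts in the control. REEP6 itself had 649 and 680 counts with overexpression, against 348 and 468 in the control, a log2 fold change of 0.82 ± 0.108 (SE, edgeR adjusted p 0.00119). Defining markers of squamous epithelium were nearly absent in both groups: KRT6A and DSG3 had 0 counts in each library, KRT5 at most 2, KRT14 at most 6, CDH1 at most 1 and TP63 at most 14. Of 10 squamous markers 8 stayed under 1 FPKM in all 4 libraries, which goes against the squamous label of the line. The other 2 were PERP, at 177 and 206 FPKM with REEP6 and 170 and 208 FPKM in the control, and EPCAM, at 1.83 and 2.36 FPKM with REEP6 and 0.957 and 1.36 FPKM in the control. The summed squamous level, nearly all of it PERP, was 179 and 208 FPKM with REEP6 and 171 and 210 FPKM in the control. The summed level of the 10 fibroblast markers was 18.0 to 18.1 FPKM with REEP6 and 34.6 to 36.8 FPKM in the control, with FAP at 0 in both groups. Of the fibroblast list 4 genes were tested (COL3A1, LUM, POSTN and PDGFRB) and all 4 fell. POSTN, at 0.456 and 0.289 FPKM with REEP6 and 1.57 and 1.7 FPKM in the control, passed the filter only through the control. Its fall is therefore no separate support. The other 6 were under 1 FPKM in all libraries, with COL1A2, DCN and THY1 at 0 to 6 counts. ACTA2 was at 0.886 FPKM with REEP6 and 0.89 FPKM in the control. All 6 endothelial and all 6 leukocyte markers, and 4 of 5 melanocyte markers, were under 1 FPKM in each library. The part of this marker difference in the results below was not tested, and in bulk RNA fewer cells of a type and less RNA per cell cannot be told apart.

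Genes with an FPKM (fragments per kilobase of exon, scaled to library depth) of at least 1 in at least 2 libraries were tested, and a gene was called at a Benjamini-Hochberg adjusted p under 0.05 in edgeR's quasi-likelihood test over 13077 genes. Of the 64 enzyme genes 56 were tested. With REEP6, 4 rose (KDM1B, KDM3B, HDAC4 and HDAC5) and 6 fell (KDM3A, KDM5A, KDM6B, KMT5B, EZH1 and SIRT7), while 46 were not called. These 10 calls were 17.9% of the tested members, beside 25.1% of all tested genes. The rises were 7.14% of members, beside a background of 10.9%, and the falls 10.7%, beside 14.2%. Of the 10 called genes 3 differed by at least 1.5-fold, beside 1274 of the 3276 called over all genes. The log2 fold changes of the tested members ran from -0.71 to 0.79 with a median of 0.02, beside -0.01 for all genes tested. In FPKM the groups did not overlap for 32 of the 56 tested members (57.1%), beside 63.5% of all genes tested. The median size of the change was 0.17 on the log2 scale for the members and 0.26 for all genes tested. The split depended on scaling: with FPKM scaled to equal sums 1 member rose and 11 fell (8.33% of calls higher, against 40%), a scaling under which the median over all tested genes was -0.14. With a correction for gene length 9 members rose and 4 fell (69.2% of calls higher, 16.1% of members tested), beside 1620 genes called higher and 1529 called lower over all genes (51.4% of calls higher, 12.4% of genes tested). Without REEP6 replicate 1 the rises numbered 2, without NC replicate 1 the falls numbered 3, and limma on log2(FPKM + 1) called 0 higher and 3 lower. The p-values measure the spread between the samples of a group, which may be technical, since the labels do not say that the 2 samples were separate cultures.

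**Figure D1:**
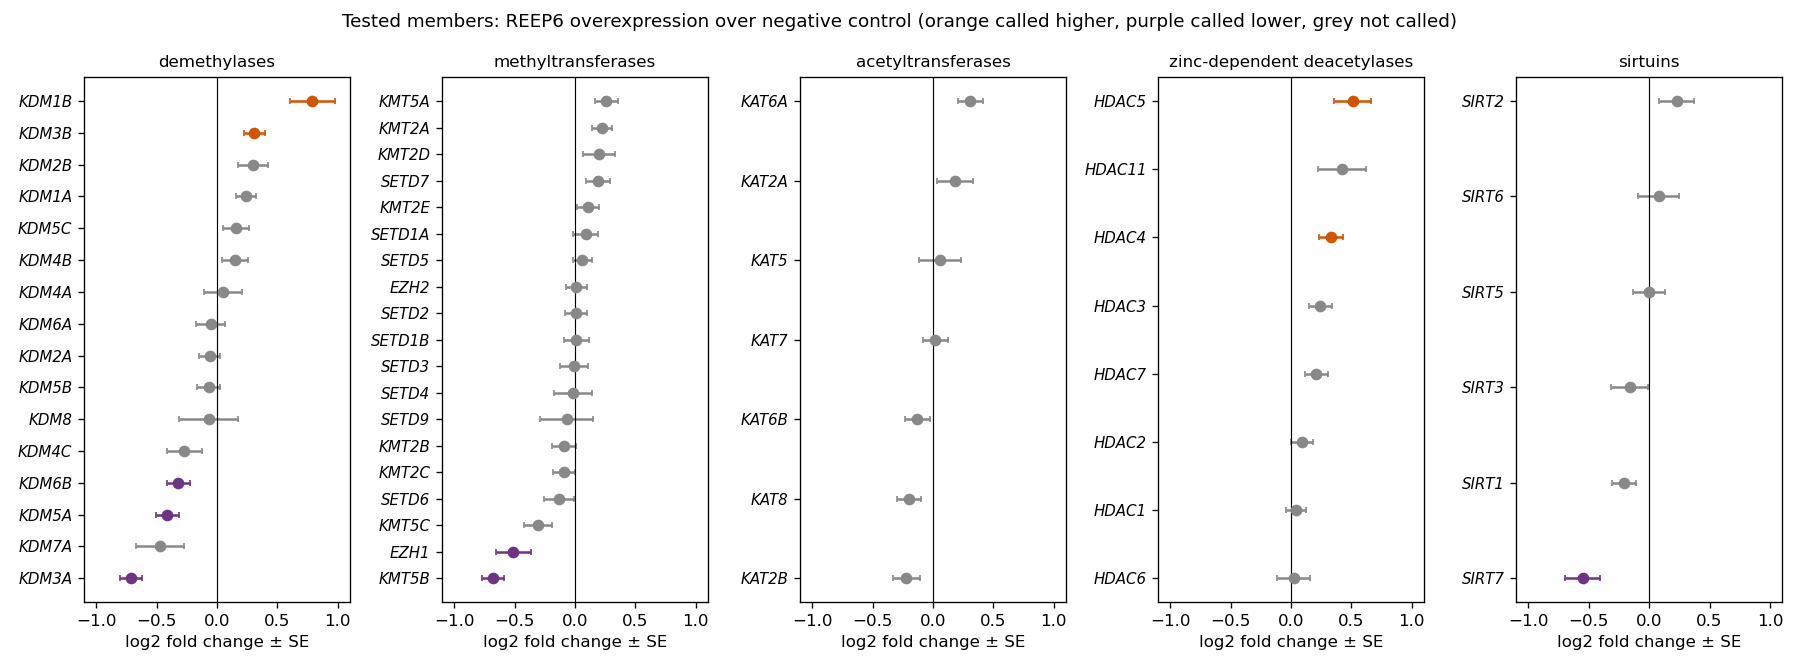
Log2 fold change of REEP6 overexpression over negative control (x axis, points, with standard errors as bars) for the 56 tested members, by enzyme family; orange marks genes called higher, purple genes called lower and grey genes not called. Demethylases spread from -0.71 to 0.79, whereas the SETD genes within the methyltransferases lie between -0.13 and 0.19.

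KDM3A, KMT5B and KDM5A kept their call at an adjusted p under 0.05 in all 16 alternatives to the processing, and KDM5A was not called at an adjusted p of 0.01. The alternatives gave log2 fold changes from -0.84 to -0.57, from -0.81 to -0.51 and from -0.54 to -0.29. Their promoters are shown because these were the most stable of the calls, and that of KDM1B because its rise was the largest fold among the called members. Each line is the 250 bases before the RefSeq start closest to the annotated gene start (GRCh38.p14, coding strand), with capitals for the GC box (GGGCGG), the CCAAT box (CCAAT) and the core of the hypoxia response element (ACGTG), on either strand.
KDM3A, chr2:86441121-86441370, plus strand: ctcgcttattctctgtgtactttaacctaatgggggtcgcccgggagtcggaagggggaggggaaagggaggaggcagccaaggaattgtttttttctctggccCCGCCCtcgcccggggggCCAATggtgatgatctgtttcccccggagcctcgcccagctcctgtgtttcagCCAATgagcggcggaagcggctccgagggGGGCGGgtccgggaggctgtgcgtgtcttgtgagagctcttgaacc
KMT5B, chr11:68213649-68213898, minus strand: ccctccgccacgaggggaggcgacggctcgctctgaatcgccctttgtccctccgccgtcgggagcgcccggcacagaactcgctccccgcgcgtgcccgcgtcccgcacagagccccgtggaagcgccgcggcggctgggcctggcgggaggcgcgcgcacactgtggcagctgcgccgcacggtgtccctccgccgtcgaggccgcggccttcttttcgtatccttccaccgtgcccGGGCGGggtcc
KDM5A, chr12:389321-389570, minus strand: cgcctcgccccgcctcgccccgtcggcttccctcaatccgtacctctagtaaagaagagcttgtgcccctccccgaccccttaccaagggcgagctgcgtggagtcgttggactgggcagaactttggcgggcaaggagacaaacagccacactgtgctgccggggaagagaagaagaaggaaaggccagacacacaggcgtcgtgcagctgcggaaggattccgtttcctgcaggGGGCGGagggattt
KDM1B, chr6:18155172-18155421, plus strand: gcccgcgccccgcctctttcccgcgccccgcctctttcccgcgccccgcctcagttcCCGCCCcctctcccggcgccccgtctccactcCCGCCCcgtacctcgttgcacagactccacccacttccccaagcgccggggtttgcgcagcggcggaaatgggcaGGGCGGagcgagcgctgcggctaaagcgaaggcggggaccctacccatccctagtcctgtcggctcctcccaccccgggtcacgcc
The KDM3A start used lies 724 bases from the annotated gene start. KDM3A has 2 CCAAT boxes and 2 GC boxes, KMT5B and KDM5A have 1 GC box each close to the start, and KDM1B has 3 GC boxes. The core ACGTG is in none of these 4 windows. KAT8, KDM4E, KAT6A, SIRT7, HDAC5 and SETD1B had no entry in the promoter table. Over the 58 members with a RefSeq promoter, GC boxes were in 63.8% of windows, against 42.6% of all 35116 promoters of the table. Each member had 1 window, whereas the table can hold several promoters of a gene and includes genes not tested here. Some member windows lay far from the annotated start, at 50480 bases for SETD7, 40160 for HDAC2 and 37110 for KDM4C. CCAAT was in 29.3% of member windows, against 32% of all, and ACGTG in 24.1%, against 18.5%. The ETS sequence CCGGAAG was in 19% of member windows, against 8.52%, and the TATA box TATAAA in 1.72%, against 10.7%. The NRF1 motif was in 5.17% of member windows, against 1.03%, while the CRE TGACGTCA, the E2F sequence TTTCGCGC and the YY1 motif were in 0 of 58, against 1.65%, 0.439% and 0.373% of all. No motif searched contains another, and each was read on both strands. Median GC content was 66.6% in the member windows and 58% over all windows. The members called lower with a promoter in the table (5 genes) had GC boxes in 4, CCAAT in 1 and ACGTG in 0, and the 3 called higher had GC boxes in 3, CCAAT in 1 and ACGTG in 1.

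The demethylases had the widest range, with 2 higher and 3 lower of 16 tested (31.2% called, beside 25.1% of all tested genes). KDM3A, a JmjC enzyme that removes the mono- and dimethyl marks of lysine 9 of H3 and is known as a hypoxia-induced gene, was the member with the largest fall. KDM3A (ENSG00000115548, chromosome 2, 86440647 to 86492716, plus strand, GRCh38) had 864 and 982 counts with REEP6, against 1479 and 1777 in the control. Both REEP6 libraries lay below both controls, at 5.18 ± 0.45 FPKM against 8.64 ± 0.0948 FPKM (SD, n = 2 each), a 1.64-fold fall with a log2 fold change of -0.71 ± 0.0932 (SE, edgeR adjusted p 0.00116). Its closest relative, KDM3B, acts on the same lysine and moved the other way. KDM3B (chromosome 5, 138352596 to 138437028, plus strand) had 2767 and 2543 counts with REEP6 and 2134 and 2473 in the control, or 25.1 ± 1.59 against 20.6 ± 0.301 FPKM (log2 fold change 0.31 ± 0.0871 SE, adjusted p 0.0281). The count ratio of KDM3A to KDM3B was 0.312 and 0.386 with REEP6, against 0.693 and 0.719 in the control, a pair chosen after its values were seen. The KDM3B call ended with equal FPKM sums (0.18, adjusted p 0.192), by limma on log2(FPKM + 1) (adjusted p 0.0795) and without REEP6 replicate 1 (0.24, adjusted p 0.248). JMJD1C, the third gene of the KDM3 family, whose symbol lies outside the set, fell by 0.64 on the log2 scale (adjusted p 0.0012).

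KDM5A (chromosome 12, 280129 to 389454, minus strand), a JmjC enzyme that removes methyl groups from lysine 4 of H3 and was first described as a partner of the retinoblastoma protein, fell 1.33-fold. Its level was 10.2 FPKM in each REEP6 library, against 14.7 and 12.9 FPKM in the control (log2 fold change -0.41 ± 0.092 SE, adjusted p 0.0117). The KDM5 relatives KDM5B and KDM5C, which act on the same lysine, were not called, with log2 fold changes of -0.07 and 0.16. Counts of KDM5C were 1568 and 1441 with REEP6 and 1465 and 1426 in the control, and its groups overlapped in FPKM. KDM6B (chromosome 17, 7839904 to 7854796, plus strand), which removes methyl groups from lysine 27 of H3 and is induced in inflammation, fell 1.25-fold, at 5.17 and 5.10 FPKM with REEP6 against 6.38 and 6.66 FPKM in the control (log2 fold change -0.32 ± 0.0975 SE, adjusted p 0.0404). The KDM6B call ended in 9 of 16 alternatives, among them DESeq2 (adjusted p 0.143), limma on log2(FPKM + 1) (0.069) and leaving out any 1 library (0.0519 to 0.191). KDM6A, the X-linked enzyme for the same mark, was not called, at 4.76 and 5.09 FPKM with REEP6 and 4.72 and 5.65 FPKM in the control (log2 fold change -0.05).

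Of the flavin-dependent pair, KDM1B rose and KDM1A was not called. KDM1B (chromosome 6, 18155329 to 18223853, plus strand), which acts on lysine 4 of H3 and in the mouse is known from imprinting in oocytes, had 194 and 192 counts with REEP6 and 94 and 149 in the control. The REEP6 pair was tight and the control pair spread, at 2.60 ± 0.0283 FPKM against 1.53 ± 0.314 FPKM (SD, n = 2 each; log2 fold change 0.79 ± 0.189 SE, 1.72-fold, adjusted p 0.0153). Without NC replicate 1 the log2 fold change was 0.59 and the call ended (adjusted p 0.052), and by limma on log2(FPKM + 1) it was 0.51 (adjusted p 0.0652). KDM1A, the catalytic subunit of the CoREST demethylase complex, was far more abundant, with 28.1 ± 0.697 FPKM with REEP6 and 24.2 ± 0.154 FPKM in the control, and missed the threshold (log2 fold change 0.24 ± 0.083 SE, adjusted p 0.0582), but was called with median-of-ratios scaling (0.26) and with the length correction (0.26). KDM2A, KDM2B, KDM4A, KDM4B, KDM4C, KDM7A and KDM8 were not called either, and ran from -0.47 for KDM7A to 0.30 for KDM2B, which was called higher with the length correction (0.41). KDM4A shares 40.2% of its exon bases with the readthrough gene AL451062.3, so its counts are uncertain. KDM7A, an enzyme for lysines 9 and 27 of H3, had 173 and 118 counts with REEP6, against 200 and 235 in the control (adjusted p 0.114). KDM7A was called lower without REEP6 replicate 1 (-0.78, adjusted p 0.0169) and with equal FPKM sums (-0.60), and was at -0.21 without REEP6 replicate 2 and at -0.16 with the GC correction.

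**Figure D2:**
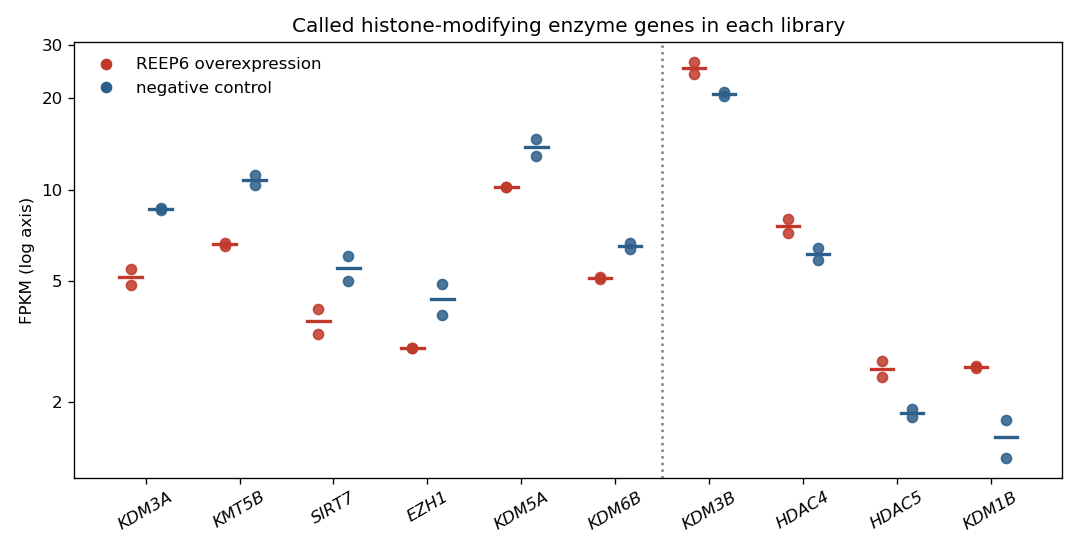
FPKM (y axis, log scale) of the 10 called members in each library, REEP6 overexpression in red and negative control in blue, with short lines at the group means (n = 2 each); genes left of the dotted line were lower and those right of it higher with REEP6. The red and blue points of each gene do not overlap, but these genes were picked by their calls on the same libraries, so this is no separate support. The groups did not overlap for 63.5% of all genes tested, called or not.

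Among the 19 methyltransferases, all of them tested, 2 fell and 0 rose by edgeR (10.5% called, beside 25.1% of all tested genes). At an unadjusted p under 0.05, 2 were higher, and by DESeq2 or limma 0 were higher. KMT5B (ENSG00000110066, chromosome 11, 68154863 to 68213828, minus strand), which adds the second methyl group to lysine 20 of H4, fell 1.60-fold. It had 748 and 766 counts with REEP6 and 1242 and 1364 in the control, or 6.61 ± 0.0877 against 10.8 ± 0.567 FPKM (SD, n = 2 each; log2 fold change -0.68 ± 0.0907 SE, adjusted p 0.00124). The other KMT5 genes were not called and lay on either side of 0. KMT5A, which makes the monomethyl mark that KMT5B extends, had 13.3 ± 0.0122 FPKM with REEP6 and 11.3 ± 0.467 FPKM in the control (log2 fold change 0.26, adjusted p 0.0657), and KMT5C, a close relative of KMT5B, had 5.29 ± 0.175 FPKM with REEP6 and 6.67 ± 0.0636 FPKM in the control (-0.31, adjusted p 0.0798). KMT5C was called lower with equal FPKM sums (-0.44) and with the GC correction (-0.39). The count ratio of KMT5B to KMT5A was 0.928 and 0.947 with REEP6, against 1.93 and 1.69 in the control, again a pair chosen after its values were seen.

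EZH1 and EZH2 are the alternative catalytic subunits of Polycomb repressive complex 2, which methylates lysine 27 of H3, and EZH2 is the form of dividing cells. EZH1 (chromosome 17, 42700275 to 42745049, minus strand) fell 1.42-fold, with 279 and 280 counts with REEP6 and 438 and 411 in the control, or 3.01 ± 0.00306 against 4.37 ± 0.713 FPKM (log2 fold change -0.51 ± 0.143 SE, adjusted p 0.0296). EZH2 had 21.3 and 21.0 FPKM with REEP6 and 21.9 and 20.9 FPKM in the control, and the groups overlapped (log2 fold change 0.01 ± 0.086 SE). The EZH1 call ended without NC replicate 1 (-0.34, adjusted p 0.152), with a correction for gene length (-0.43, adjusted p 0.0558) and by limma on log2(FPKM + 1) (adjusted p 0.0813).

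The 5 KMT2 genes and the 9 SETD genes had 0 calls by edgeR, DESeq2 and limma, with 1 KMT2 gene and 0 SETD genes at an unadjusted p under 0.05. KMT2A, the MLL methyltransferase of lysine 4 of H3, was the KMT2 gene past that level (log2 fold change 0.22 ± 0.0833 SE, adjusted p 0.0796). Its level was 4.81 and 4.79 FPKM with REEP6, above 4.30 and 4.09 FPKM in the control, and it was called higher with the length correction (0.37). KMT2D, an enhancer methyltransferase often mutated in head and neck carcinoma, had 3895 and 3495 counts with REEP6 and 3641 and 3219 in the control (log2 fold change 0.20 ± 0.13 SE), and the control pair alone spanned 10.3 to 13.8 FPKM. Without NC replicate 1 KMT2D was called higher (0.42, adjusted p 0.0116), and without NC replicate 2 its log2 fold change was 0.03. The SETD genes ran from -0.13 for SETD6 to 0.19 for SETD7, with a median of 0.01. SETD2, which trimethylates lysine 36 of H3, had 9.78 and 9.15 FPKM with REEP6 and 10.0 and 9.23 FPKM in the control. SETD3, an enzyme that methylates a histidine of actin, had 11.7 and 13.2 FPKM with REEP6 and 11.4 and 14.0 FPKM in the control. Within this family each gene had at least 130 counts in each library. The standard error still reached 0.216 for SETD9, so genes not called are not shown to be unchanged. Of the exon bases of SETD6, 21.4% are also exon of CNOT1 on the opposite strand, and 17.9% of those of KMT2A belong to AP001267.5 on the same strand, so part of their counts is uncertain.

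Of the 7 acetyltransferases edgeR called 0, beside 25.1% of all tested genes, and DESeq2 and limma on log2(FPKM + 1) also called 0. Of the 7, 1 had an unadjusted p under 0.05. That gene was KAT6A, the MOZ acetyltransferase, with 2.53 and 2.64 FPKM with REEP6 and 2.32 and 1.94 FPKM in the control (log2 fold change 0.31 ± 0.107 SE, adjusted p 0.0629). KAT6A was called higher with no filter (0.33), with the length (0.44) and GC (0.43) corrections and without NC replicate 1 (0.44, adjusted p 0.0134). KAT2A and KAT2B, the alternative catalytic subunits of SAGA-type complexes, had log2 fold changes of 0.18 ± 0.15 and -0.22 ± 0.11 (SE), and KAT2B was called lower with equal FPKM sums (-0.35). KAT8, which acetylates lysine 16 of H4, had 12.4 and 11.5 FPKM with REEP6, against 14.7 and 13.4 FPKM in the control (-0.20 ± 0.0988 SE, adjusted p 0.161), and was called lower with equal FPKM sums (-0.34) and with the GC correction (-0.32). KAT5, KAT6B and KAT7 lay between -0.13 and 0.06. For KAT5, 38.6% of the annotated exon bases are also exon of RNASEH2C on the opposite strand, so its counts are uncertain.

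Zinc-dependent deacetylases had 2 higher and 0 lower of 8 tested (25% called, beside 25.1% of all tested genes). Also at an unadjusted p under 0.05, by DESeq2 and by limma 0 were lower. Both called genes belong to class IIa, whose proteins shuttle between nucleus and cytoplasm and repress MEF2 target genes. HDAC5 (chromosome 17, 44076746 to 44123702, minus strand) had 274 and 245 counts with REEP6, against 186 and 206 in the control (2.57 ± 0.212 against 1.84 ± 0.0856 FPKM, log2 fold change 0.51 ± 0.151 SE, adjusted p 0.0354). HDAC4 (chromosome 2, 239048168 to 239401654, minus strand) had 7.19 and 8.02 FPKM with REEP6, against 6.45 and 5.88 FPKM in the control (0.33 ± 0.0957 SE, adjusted p 0.0323). HDAC7, of the same class, lay above both controls in both REEP6 libraries without passing (5.61 and 6.08 FPKM with REEP6 against 5.20 and 5.11 FPKM in the control, log2 fold change 0.21, adjusted p 0.133). Both class IIa calls ended with equal FPKM sums (adjusted p 0.201 for HDAC4 and 0.101 for HDAC5), by limma on log2(FPKM + 1) (0.119 and 0.112), with a GC correction (0.144 and 0.0788) and without NC replicate 2 (0.079 and 0.0863). The HDAC4 call also ended without REEP6 replicate 2 (0.217), and the HDAC5 call without REEP6 replicate 1 (0.194) and with DESeq2 (0.0648). All 8 tested deacetylases had a log2 fold change above 0 (median 0.23), beside 6438 of all 13077 tested genes (median -0.01). HDAC1, HDAC2 and HDAC6 turned below 0 with equal FPKM sums. In a fit without the filter the untested HDAC8, HDAC9 and HDAC10 were at 0.06 ± 0.186, -0.69 ± 0.463 and -0.05 ± 0.973 (SE).

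The class I enzymes are the catalytic cores of co-repressor complexes such as SIN3, NuRD and CoREST. HDAC1 was the most abundant of the 64 genes, with 46.6 and 48.5 FPKM with REEP6 and 45.5 and 48.7 FPKM in the control (log2 fold change 0.04 ± 0.0844 SE). HDAC2 had 8.54 ± 0.268 FPKM with REEP6 and 8.16 ± 0.375 FPKM in the control (0.09). Its FPKM was scaled to 15461 exon bases, against 3963 for HDAC1, so the gap between them in FPKM is wider than in counts (1786 and 1717 HDAC2 counts with REEP6, beside 2443 and 2555 for HDAC1). HDAC3, a nuclear class I enzyme, had 991 and 960 counts with REEP6 and 776 and 1006 in the control, or 15.9 ± 0.413 against 13.7 ± 0.884 FPKM (0.24 ± 0.0946 SE, adjusted p 0.0878). HDAC6, a cytoplasmic tubulin deacetylase, was at 0.02 and HDAC11 at 0.42 ± 0.199 (SE, adjusted p 0.153). Higher calls were gained by HDAC2 with the GC correction (0.36), by HDAC3 without NC replicate 2 (0.34, adjusted p 0.0452), by HDAC7 with the length correction (0.32) and by HDAC11 without NC replicate 1 (0.63, adjusted p 0.0482).

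Of 6 sirtuins tested 1 fell and 0 rose by edgeR (16.7% called, beside 25.1% of all tested genes). The same held by DESeq2 and at an unadjusted p under 0.05, and limma called 0. SIRT7 (chromosome 17, 81911939 to 81921323, minus strand), a nucleolar deacetylase of lysine 18 of H3, fell 1.46-fold. It had 329 and 275 counts with REEP6 and 479 and 468 in the control, or 3.70 ± 0.481 against 5.53 ± 0.746 FPKM (log2 fold change -0.55 ± 0.146 SE, adjusted p 0.023). Its groups did not overlap, but the call ended without NC replicate 1 (-0.41, adjusted p 0.0799), without REEP6 replicate 2 (-0.42, adjusted p 0.0917) and by limma on log2(FPKM + 1) (adjusted p 0.0688). SIRT1, the best studied nuclear sirtuin, had 7.75 and 7.88 FPKM with REEP6 and 9.14 and 9.32 FPKM in the control (-0.21 ± 0.0991 SE, adjusted p 0.142). SIRT1 was called lower with equal FPKM sums (-0.34, adjusted p 0.0328) and turned to 0.09 with the GC correction (adjusted p 0.564). SIRT6, which acts on lysine 9 of H3, had 7.88 ± 0.527 FPKM with REEP6 and 7.63 ± 1.75 FPKM in the control (0.08). The mitochondrial SIRT3 and SIRT5 and the cytoplasmic SIRT2 had log2 fold changes of -0.16, 0.00 and 0.23, and none of them was called.

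KDM4D, KDM4E, KDM4F, KDM5D, HDAC8, HDAC9, HDAC10 and SIRT4 were below the filter and not tested. KDM4E, KDM4F and KDM5D had 0 counts in all 4 libraries, which allows up to 3 counts a library (0.197 to 0.233 CPM, counts scaled to library depth). KDM4D, an enzyme for lysine 9 of H3 that is best known from testis, lay at the filter with 40 and 39 counts with REEP6 and 20 and 21 in the control, or 1.01 and 0.984 against 0.522 and 0.464 FPKM. In a fit without the filter its log2 fold change was 1.06 ± 0.373 (SE, adjusted p 0.0348), and KDM4D shares a gene cluster on chromosome 11 with KDM4E and KDM4F, whose similar sequence makes its counts uncertain. HDAC8 had 173 to 187 counts in every library but 0.535 to 0.596 FPKM, since its exons as annotated sum to 22986 bases. HDAC9 had 12 and 16 counts with REEP6, against 25 and 24 in the control. HDAC10 had at most 9 and SIRT4 at most 10 counts in any library. For HDAC10, 55.8% of the exon bases are shared with MAPK12 on the same strand, so reads there have no single gene.

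**Figure D3:**
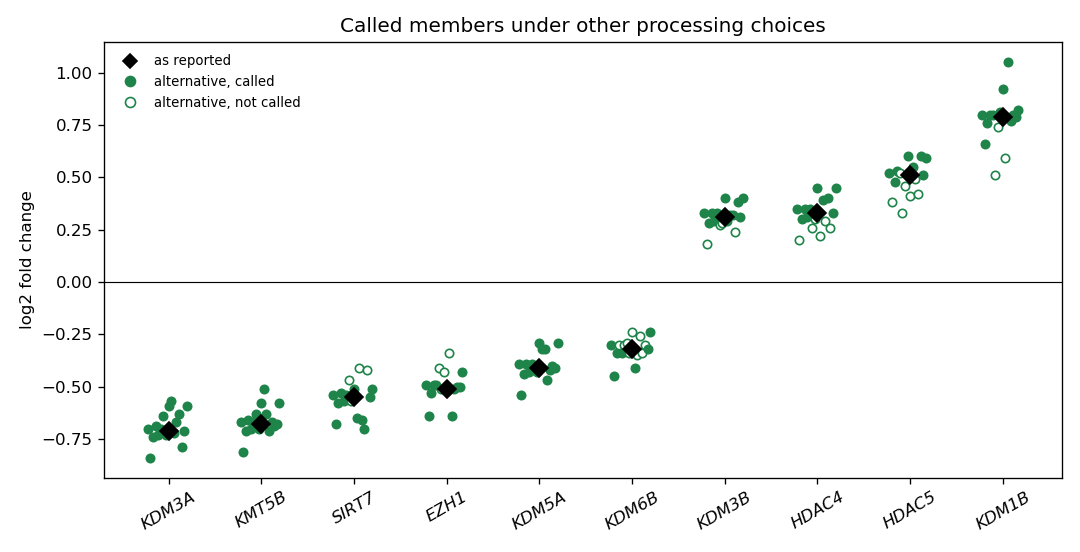
Log2 fold change (y axis) of the 10 called members as reported (diamonds) and in the alternatives (circles, filled where the gene was called and open where it was not). KDM3A, KMT5B and KDM5A have no open circle, and KDM6B has 9.

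The members were long genes, with a median exon length of 7.46 kb against 4.43 kb over all tested genes, and similar GC content of transcripts (49.4% against 49%). Across the 56 tested members Spearman's rho between log2 fold change and exon length was 0.06, and between log2 fold change and GC content 0.23. Over all 13077 tested genes the same values were -0.10 and 0.34. These are descriptions across genes of the same 4 libraries.

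Partners of these enzymes were read from lists of complex subunits and related enzymes, whose calls are set beside the 25.1% of all tested genes. COMPASS subunits, which hold the KMT2 and SETD1 enzymes, had 3 higher and 0 lower of 12 (25% called), with 1 lower at an unadjusted p under 0.05 and 0 lower by DESeq2 and limma. NCOA6 rose by 0.45 ± 0.0905 and MEN1, the menin tumour suppressor, by 0.38 ± 0.096 on the log2 scale (SE; adjusted p 0.00733 and 0.0197). The MEN1 call ended with equal FPKM sums (0.25), by limma, with the GC correction and without REEP6 replicate 1 or 2 (adjusted p 0.0661 and 0.0988). Polycomb partners had 2 higher and 3 lower of 17 (29.4% called). MTF2 and PHF1, accessory subunits of the complex of EZH1 and EZH2, fell by 0.49 and 0.52 on the log2 scale, and PHF19, of the same accessory family, rose by 0.31. With the GC correction MTF2 was at -0.24 and not called. The PHF1 call ended without NC replicate 1 (adjusted p 0.0784) or REEP6 replicate 1 (0.0983) and with DESeq2, and the PHF19 call without REEP6 replicate 1 (0.129) or 2 (0.0852), with equal FPKM sums (0.18), with the GC correction (0.20) and by limma. Co-repressor subunits of the deacetylases had 3 higher and 3 lower of 22 (27.3% called). RCOR3, of the CoREST family that binds KDM1A, fell by 0.62 ± 0.0914 on the log2 scale (SE, adjusted p 0.00186), at 4.99 FPKM with REEP6 against 7.79 FPKM in the control.

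Enzymes outside the set also had calls in both directions. Lysine methyltransferases outside the set had 1 higher and 0 lower of 16 (6.25% called), with 4 higher and 3 lower at an unadjusted p under 0.05, 2 higher and 0 lower by DESeq2, and 0 in either direction by limma. The gene that rose was EHMT2, which makes the lysine 9 dimethyl mark that KDM3A removes (log2 fold change 0.46 ± 0.115 SE, adjusted p 0.0179). The EHMT2 call ended with equal FPKM sums (0.33), by limma and without REEP6 replicate 1 (adjusted p 0.13). JmjC proteins outside the set had 1 higher and 1 lower of 9 (22.2% called), PHF2 at 0.81 ± 0.13 and JMJD1C at -0.64 ± 0.0849 (SE). Other acetyltransferases had 2 higher and 2 lower of 10 (40% called), with CLOCK, also a core circadian factor, at -0.76 ± 0.122 (SE) and CREBBP at 0.31 ± 0.0831 (SE). The CREBBP call ended with equal FPKM sums (0.17), by limma, with the GC correction (0.21) and without NC replicate 2 (adjusted p 0.0585) or REEP6 replicate 1 (0.116) or 2 (0.119). Subunits of acetyltransferase complexes had 2 higher and 2 lower of 23 (17.4% called). Arginine methyltransferases had 2 higher and 1 lower of 8 (37.5% called). CARM1 rose by 0.71 ± 0.099 (SE, adjusted p 0.0015) and PRMT1 by 0.49 ± 0.0866 (SE, adjusted p 0.00412). PRMT9 fell, at -0.53 ± 0.169 (SE, adjusted p 0.0464), and was not called by DESeq2 or limma.

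Genes that supply the cofactors had 3 higher and 1 lower of 10 (40% called). NAMPT, the rate-limiting enzyme of NAD salvage, fell to 25.2 FPKM with REEP6, against 39.0 FPKM in the control (log2 fold change -0.61 ± 0.0942 SE, adjusted p 0.0023). ACLY and ACSS2, which make acetyl-CoA, rose by 0.35 and 0.65 on the log2 scale, and AHCY, which clears the product of methylation, by 0.38. The ACLY call ended with equal FPKM sums (0.21) and without NC replicate 2 or REEP6 replicate 1 (adjusted p 0.0993 and 0.164), the AHCY call with equal FPKM sums (0.25) and without REEP6 replicate 1 (0.0783), and the ACSS2 call without REEP6 replicate 2 (0.126). With the GC correction none of these 3 rises was called. Proliferation genes had 5 higher and 2 lower of 17 (41.2% called), with PLK1 at 0.53 ± 0.0924 and TOP2A at -0.58 ± 0.0837 (SE). With the GC correction TOP2A was at -0.29 and not called (adjusted p 0.0502).

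**Figure D4:**
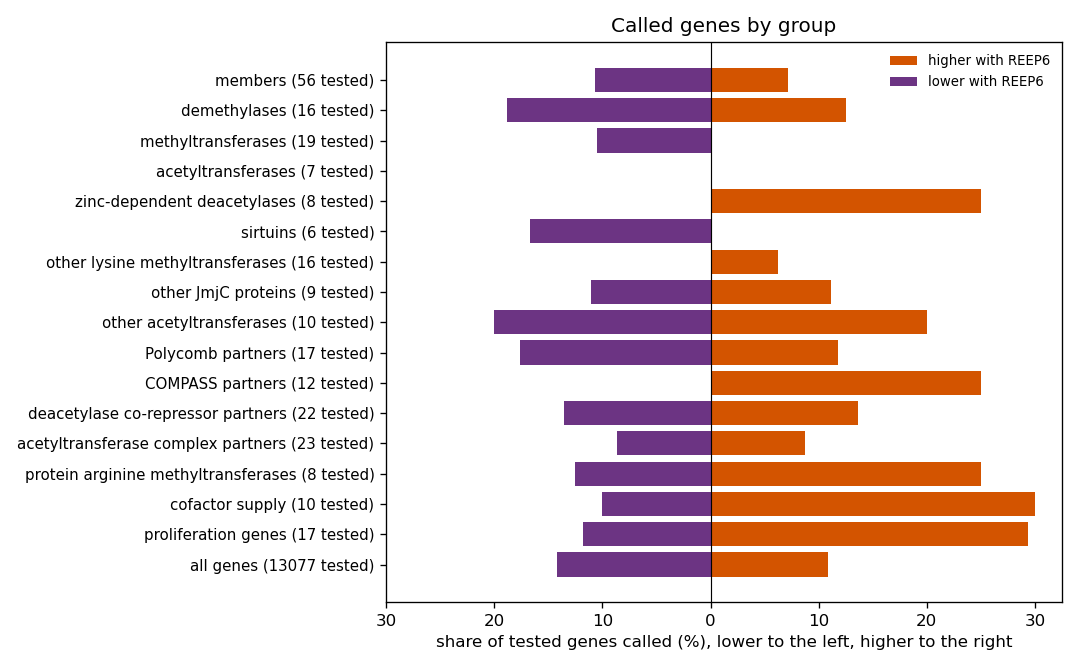
Share of tested genes (x axis, percent) called higher (orange, to the right) and lower (purple, to the left) with REEP6 overexpression, for all members, the 5 enzyme families, the lists of partners and related genes, and all 13077 genes tested. The members show 7.14% higher and 10.7% lower, and the bar for all genes 10.9% and 14.2%.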

How the data were processed

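RNA of 4 libraries, 2 with REEP6 overexpression and 2 negative controls, was read from 1 table each. The authors deposited raw counts and FPKM values per Ensembl gene, per the file headers. Per the submitters' processing notes, HISAT2, HTSeq 0.13.5 and GRCh38 were used, and the notes do not assign them steps. The length behind each deposited FPKM, obtained from counts and library totals, equalled the merged exon length of GENCODE release 29 within 1% for 100% of 29161 genes with a count, so FPKM runs low for genes with long annotated exons. The strand setting and the handling of shared reads were not given in the sources used, so overlapping, antisense and paralogous genes cannot be separated. Coordinates are from GENCODE (1-based) and promoters from RefSeq.

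Here the counts, scaled by TMM (factors 0.986 to 1.01), went through the quasi-likelihood test of edgeR 4.0.16 (R 4.3.3), with 1 term for the group and 2 residual degrees of freedom (common coefficient of variation 9.35%). The test was two-sided, and p-values were adjusted over all 13077 genes with 1 FPKM in 2 libraries. The standard error is the log2 fold change over the square root of F. A positive value means higher with REEP6. An exact permutation test of 2 against 2 cannot go below 0.333 and was not used. Libraries of a group differed by more than counting noise (chi-square per degree of freedom 6.98 for REEP6 and 12.3 for the control). The method was checked on simulated counts for this comparison. It recovered 53% of 1.5-fold, 74% of 2-fold and 88% of 3-fold changes, and 5.63% of its calls were false. A member not called therefore cannot be read as unchanged. Alternatives used DESeq2 1.42.0 and limma 3.58.1 among others. Called members got full statistics and the others values or ranges, with up to 4 called genes of each partner list. The rule for the members uses symbols only, but it and the lists were chosen with earlier results of these data known.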

Additional observations from a re-analysis of the deposited data

How the results depend on the processing

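No called member changed direction in any alternative run. With limma on log2(FPKM + 1) or on log2(FPKM + 0.1), there were 1906 and 1830 genes called (634 and 597 higher, 1272 and 1233 lower) and in both 3 members, 0 higher and 3 lower. At an adjusted p of 0.01 there were 1392 genes called (495 higher, 897 lower) and 2 members, 0 higher and 2 lower, namely KDM3A and KMT5B. With FPKM scaled to equal sums 661 genes were higher and 2824 lower (19% of calls higher against 43.4%), with 1 member higher and 11 lower. A minimum of 5 FPKM gave 936 higher genes and 2 higher members, with fewer genes tested. The length correction gave 9 higher and 4 lower members, beside 1620 genes called higher and 1529 genes called lower, and the GC correction 4 higher and 8 lower members, beside 1213 genes called higher and 1125 genes called lower. Leaving out 1 library gave 2212 to 3118 genes (940 to 1495 higher, 1272 to 1717 lower) and 7 to 9 members (2 to 6 higher, 3 to 6 lower). Fewer members and fewer genes were called higher without REEP6 replicate 1, and fewer of both were called lower without NC replicate 1. The replicate numbers are shared by both groups without a stated pairing, and same-numbered libraries deviated together with a correlation of 0.271. The replicate block called 6019 genes (2957 higher, 3062 lower) and 24 members (14 higher, 10 lower), and the replicate block with the length correction 5933 genes (3204 higher, 2729 lower) and 28 members (19 higher, 9 lower). The block runs gained calls for 14 and 18 members, KDM5C and KMT5A among them in both. Gains given gene by gene above leave out both block runs. The cause of these shifts was not tested. Median-of-ratios scaling, library totals, no filter and DESeq2 kept the counts of called genes and members, in each direction, within 1.5 times. Each called member had at least 94 counts in each library, and 2 libraries a group limit the precision.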
